A study of Mus musculus with 1536 samples.

Results

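Of the 14 serotonin receptor genes examined in single serotonin neurons of the mouse raphe, 5 were read in more than 25% of the cells, and these 5 are described here: Htr1a, Htr1b, Htr1d, Htr5a and Htr5b. They are 5 of the 53263 genes in the table. They were chosen by the share of cells with a read in these same cells, so the shares below describe the choice and support nothing. Htr5a, the member nearest the limit, was read in 29.2% of the cells, and Htr7, the gene just outside it, in 12.4%.

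The cells were sorted tdTomato-positive neurons of C57BL/6J mice 40 to 45 days old, whose genotype the labels give as Sert-tdTomato-Cre by Ai14. In these mice Cre driven by the Sert promoter switches on the red reporter tdTomato in cells that make, or once made, the serotonin transporter. All cells share this genotype, and no group was treated. One dissection took the principal dorsal raphe (pDR) alone, and a wider dissection, which the labels call all DR, took according to the study's methods the caudal dorsal raphe and the median raphe as well. Cells were placed singly in wells, and the polyadenylated RNA of each gave 1 full-length Smart-seq2 library.

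The table holds 999 of 1536 labelled cells, 290 on 5 plates of the pDR and 709 on 11 plates of the wider dissection, with a median of 827283 reads on genes per cell (96834 to 2780443). Reads carry no molecular identifiers. Intervals on shares (exact Clopper-Pearson, 95%) treat cells as independent, so they cover counting error only and leave out the spread between plates and animals. All 4 serotonin neuron genes Tph2, Fev, Slc6a4 and Slc18a2 were read in 997 of 999 cells. Summed over each list, the genes of astrocytes, microglia, endothelial cells and other neurons had a median of 0 CPM per cell, and Slc17a7 had no read in any cell, whereas oligodendrocyte genes passed 100 CPM in 172 cells. Since animals are not named in the labels, a dissection is 1 sample here, plates give the spread, and no p-value is given. In its place stands how many plates shared a direction.

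Serotonin receptors on serotonin neurons let the neuron sense the transmitter it releases. The receptors of the 1A, 1B and 1D types couple to inhibitory G proteins, which lower cyclic AMP, open G protein-gated potassium channels and close presynaptic calcium channels. The 1A type sits mainly on the cell body and dendrites, where it slows firing, and the 1B and 1D types mainly on axon terminals, where they lower release. The 5A type is also coupled to inhibitory G proteins. The gene for the 5B type makes a receptor in rodents whose signalling is little known.

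In the GRCm38 annotation (GENCODE M21), Htr1a is a gene of a single exon on the plus strand of chromosome 13, chr13:105443639-105448122. Htr1b lies on the minus strand at chr9:81628291-81633828, where the exons of the antisense gene D430036J16Rik overlap its own. Because reads were counted without strand, reads of those exons cannot be told apart, and 15.6% of the 75-base stretches of Htr1b transcripts also occur in another annotated gene, so its level is the least certain of the 5. Htr1d is on the plus strand at chr4:136423524-136444398, Htr5a on the plus strand at chr5:27842149-27855088 and Htr5b on the minus strand at chr1:121509842-121528465. The transcripts of these 3 and of Htr1a shared 0 stretches of 75 bases with any other gene.

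The promoters of Htr1a, Htr1b and Htr1d are shown because Htr1b and Htr1d fell most and Htr1a rose in cells with Zeb2, which encodes a zinc-finger repressor known to bind CACCT. They are RefSeq sequences of GRCm38.p6, 5′ to 3′ on the strand of the gene, from 250 bases before to 50 bases after the start, at chr13:105443443-105443742 (plus), chr9:81633783-81634082 (minus) and chr4:136423274-136423573 (plus). Capitals mark CACCT on the gene's strand or, as AGGTG, on the opposite strand.
Htr1a: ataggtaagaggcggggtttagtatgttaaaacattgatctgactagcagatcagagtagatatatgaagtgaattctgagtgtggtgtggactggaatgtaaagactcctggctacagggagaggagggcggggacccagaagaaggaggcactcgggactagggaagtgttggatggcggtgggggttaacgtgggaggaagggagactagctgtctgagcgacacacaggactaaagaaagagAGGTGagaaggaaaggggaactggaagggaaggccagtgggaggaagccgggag
Htr1b: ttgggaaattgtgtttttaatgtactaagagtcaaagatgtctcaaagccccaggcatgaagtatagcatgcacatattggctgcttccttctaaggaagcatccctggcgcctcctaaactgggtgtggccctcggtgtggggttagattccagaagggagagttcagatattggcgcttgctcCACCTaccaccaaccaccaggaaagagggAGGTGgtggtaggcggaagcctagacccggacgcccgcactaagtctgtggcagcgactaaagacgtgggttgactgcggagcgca
Htr1d: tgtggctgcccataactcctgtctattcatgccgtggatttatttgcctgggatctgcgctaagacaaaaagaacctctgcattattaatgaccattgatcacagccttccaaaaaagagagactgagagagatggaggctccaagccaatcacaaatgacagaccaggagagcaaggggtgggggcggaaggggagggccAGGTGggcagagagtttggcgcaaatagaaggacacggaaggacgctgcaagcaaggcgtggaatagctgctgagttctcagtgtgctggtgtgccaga
Htr1b has 2 matches, which begin 65 and 36 bases before the start and lie on opposite strands. Htr1d has 1 match, 49 bases before the start, and a promoter at another of its starts, chr4:136424362-136424661, also has 1. Htr1a has 1 match, 4 bases before the start, and the promoter of Htr5a has 0. Of all 32851 promoters of this length, 51.9% hold at least 1 match and 18.2% at least 2, so a match is common and is given as a description only.

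Htr1a was the most widely read and most abundant of the 5. It was read in 944 of 999 cells (94.5%, interval 92.9 to 95.8%), and its plate means ran from 84.1 through a median of 110 to 193 CPM (counts of the gene scaled to the same total of reads on genes in every cell). Htr1b was read in 80.9% of cells with plate means of 11.7, 24.5 and 54.9 CPM (lowest, median, highest). Htr1d was read in 72.4% with 17.3, 46.5 and 55.5 CPM.

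The 2 genes of the 5 type were read in fewer cells and differed from each other in level. Htr5b was read in 393 cells (39.3%, 36.3 to 42.4%) with plate means of 15.9, 33.0 and 44.9 CPM, and a cell that had it held a median of 63 reads. Htr5a was read in 292 cells (29.2%, 26.4 to 32.2%) with 1.95, 2.77 and 3.90 CPM. In 134 of those 292 cells (45.9%) Htr5a rested on 1 to 4 reads, against 3.31% for Htr5b, so a missing read of Htr5a says little about the cell.

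Per kilobase of exon, which allows genes to be compared, Htr1a had a mean level of 25.7 CPM per kb, the highest of the 5. Htr5b had 16.5, Htr1d 13.6, Htr1b 6.08 and Htr5a 0.513 CPM per kb. Htr5b ranked above Htr1d over all cells although it was read in fewer, but the order depended on the dissection: in the pDR Htr1d had 15.8 and Htr5b 14.7 CPM per kb, and in the wider dissection Htr1d had 12.7 and Htr5b 17.3. It was the leading member per length in 28.2% of cells, Htr1a in 48.6%, Htr1d in 18.5%, Htr1b in 2.80% and Htr5a in 0.501%. The other 9 receptor genes ranged from 1 cell for Htr3b, which encodes a channel subunit, to 124 cells for Htr7, whose receptor raises cyclic AMP.

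**Figure D1:**
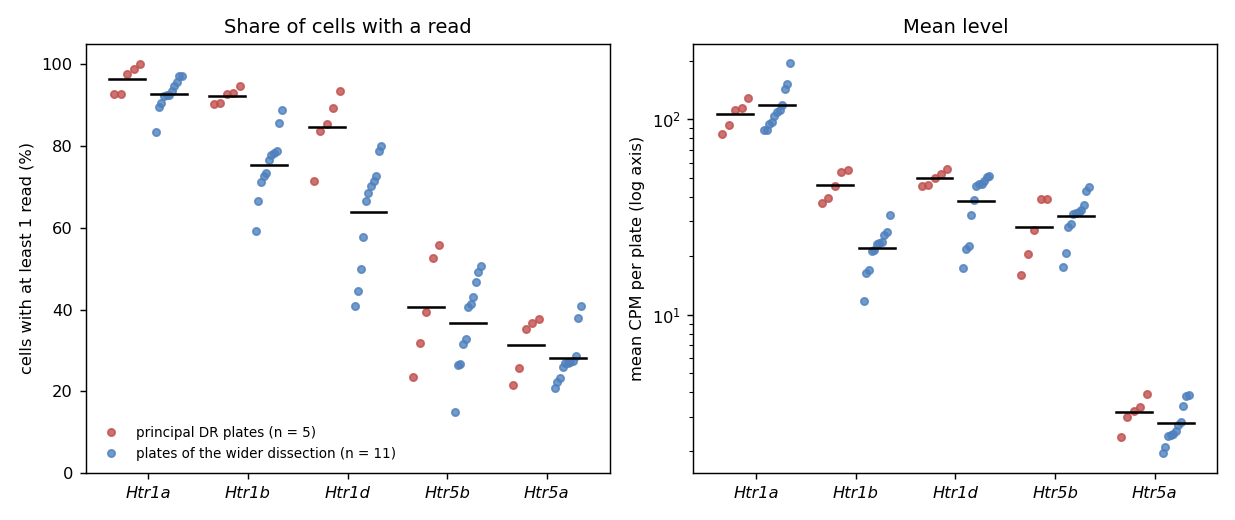
Share of cells with at least 1 read (left, percent) and mean CPM (right, log axis) of each member, 1 point per plate, spread sideways in order of value for visibility only, with black bars for the mean over the plates of each dissection. Htr1b is the member whose pDR plates (37.4 to 54.9 CPM) all sit above those of the wider dissection (11.7 to 32.3 CPM).

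Nearly every cell held a read of at least 1 of the 5 receptors, and most held several. A member was read in 986 of 999 cells (98.7%, 97.8 to 99.3%), and 387 cells (38.7%) held 3 members, 282 held 4 and 102 held all 5. Of the 32 possible combinations 28 were seen, and 3 of them covered 549 cells. The most frequent was Htr1a with Htr1b and Htr1d and neither gene of the 5 type, in 280 cells (28.0%, 25.3 to 30.9%). Htr1b, Htr1d and Htr1a were read together, with or without the others, in 63.8% of cells.

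The extremes were fuller than the separate shares give when multiplied within each plate and summed over plates. All 5 members were read in 102 cells, against 70.8 cells from the product of the 5 shares, and Htr1a alone in 62 cells against 29.8. No member was read in 13 cells against 2.24. The pair Htr1a and Htr1b without the other 3 was read in 55 cells against 88.6. Numbers of cells with 3 and with 4 members lay near the product, at 387 against 395 and 282 against 300. Median depth was 458437 reads in cells with no member and 966458 in cells with all 5, and in between it did not follow the number of members, at 826527 with 1, 770838 with 2, 793053 with 3 and 846248 with 4. With every cell thinned to 250000 reads, which left out 9 cells, all 5 members were read in 7.17% of cells in place of 10.2%, and Htr1a, Htr1b and Htr1d together in 59.7% in place of 63.8%.

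Only 13 cells, on 9 plates, held no read of any of the 5, and 9 of them held a read of another receptor gene, which leaves 4 cells of 999 with none of the 14. These 13 cells were shallow, with a median of 458437 reads (120692 to 678398), and their median Tph2 was 4264 CPM against 9410 CPM over all cells. Of the 13 cells, 5 were Irx2-positive and 0 were Zeb2-positive.

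**Figure D2:**
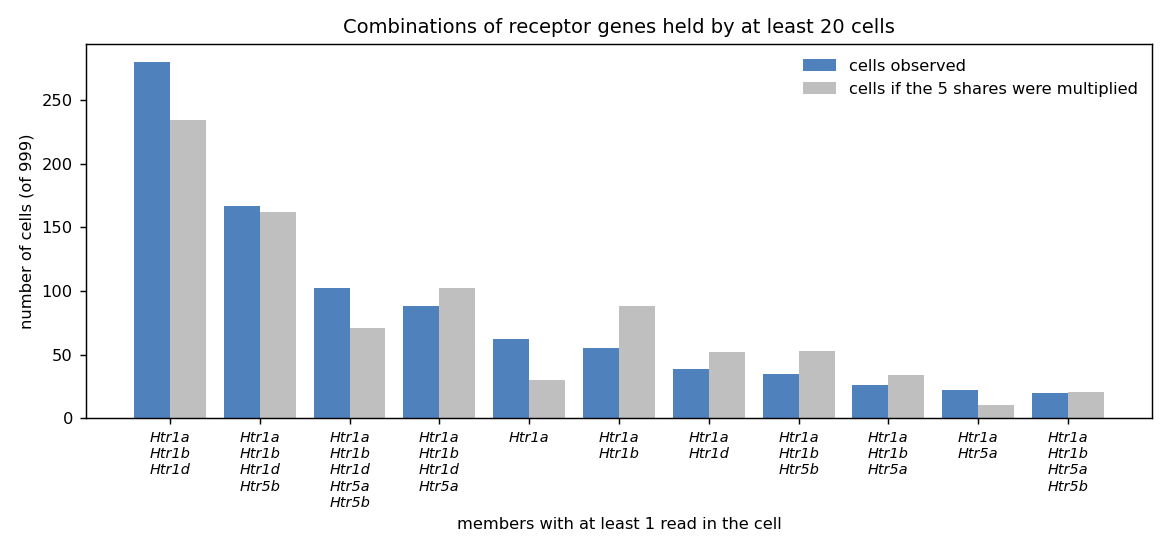
Number of cells (of 999) in each combination of members held by at least 20 cells (blue). Beside it is the number that the product of the 5 shares within each plate, summed over plates, gives (grey). Htr1a alone (62 against 29.8 cells) and all 5 together (102 against 70.8) exceed the product, while Htr1a with Htr1b falls short of it (55 against 88.6).

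Within plates, levels of the members were weakly related. The measure is the Pearson correlation of ln(CPM+1) over the cells of a plate, averaged over the 16 plates, given as a description, since cells of a plate share processing and depth. Among all genes read in at least 25% of cells, 2.1% passed 0.2 in size with Htr1a, 2.75% with Htr1b, 4.07% with Htr1d, 0% with Htr5a and 3.67% with Htr5b. It passed for 2 of the 10 pairs of members: Htr1b with Htr1d (0.23 ± 0.23, SD over 16 plates, above 0 in 13) and Htr1a with Htr1d (0.21 ± 0.19, above 0 in 14). Htr1a and Htr5b lay on the other side of 0 (-0.17 ± 0.23, below 0 in 13 plates). The remaining 7 pairs were between -0.05 and 0.15.

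The 2 dissections did not show the same pairs. In the wider dissection the mean correlation of Htr1b with Htr1d was 0.33, above 0 in 10 of 11 plates, and in the pDR it was 0.02. Htr1a and Htr1d ran the other way, with 0.36 in the pDR, above 0 in all 5 plates, and 0.15 in the wider dissection. Htr1a and Htr5b were below 0 in all 11 plates of the wider dissection (mean -0.28), and the pDR mean was 0.07. The differences between dissections were not tested, since each is 1 sample.

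The relation between Htr1b and Htr1d was seen mainly with the Zeb2-positive cells included. With those 150 cells left out, a setting chosen after the data were seen, Htr1b and Htr1d had a mean correlation of 0.04 ± 0.18 in place of 0.23. Htr1a and Htr1d rose from 0.21 to 0.40 ± 0.13, above 0 in 16 of 16 plates, and Htr1d and Htr5b moved from -0.05 to -0.19, below 0 in 14. Centring the cells by plate and by their combination of the 5 marker genes gave 0.05 for Htr1b with Htr1d and 0.35 ± 0.14 for Htr1a with Htr1d, again above 0 in all 16 plates.

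**Figure D3:**
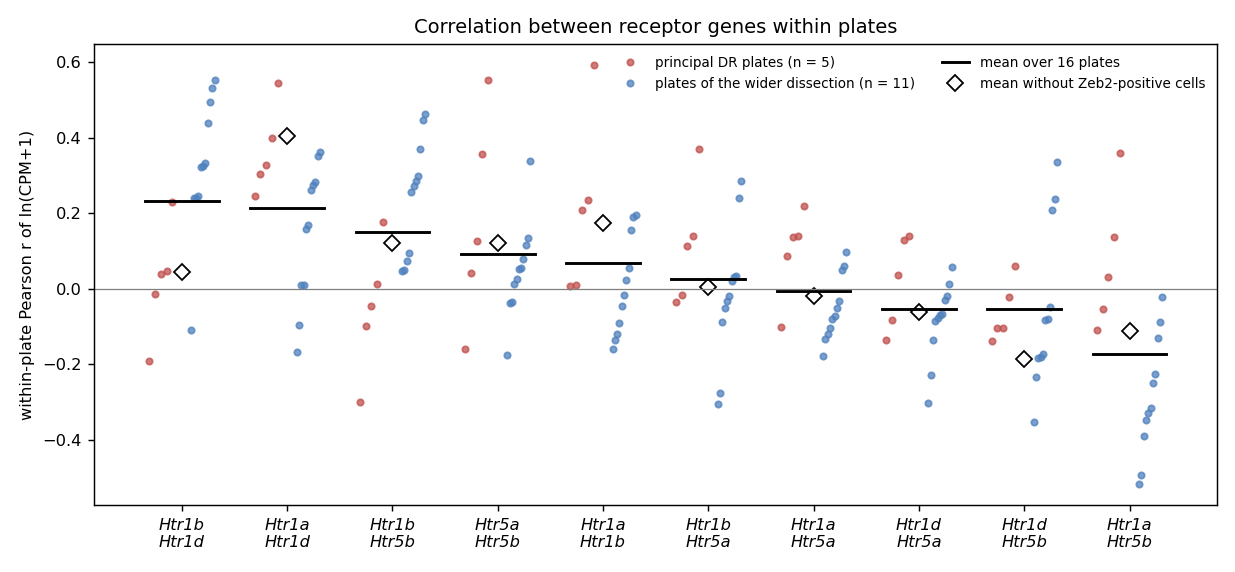
Within-plate correlation of each pair of members, 1 point per plate, with bars for the mean over 16 plates and open diamonds for the mean without Zeb2-positive cells. Without those cells the mean of Htr1b with Htr1d drops from 0.23 to 0.04 and that of Htr1a with Htr1d rises from 0.21 to 0.40.

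Genes that mark kinds of serotonin neurons divided the members further. Slc17a8 encodes the vesicular glutamate transporter VGLUT3, Gad1 and Gad2 (together Gad) the enzymes that make GABA, Trh the precursor of thyrotropin-releasing hormone, and Zeb2 and Irx2 transcription factors. At least 1 read was found for Slc17a8 in 649 cells, for Gad in 347, for Irx2 in 164, for Zeb2 in 150 and for Trh in 138. Each member was compared between positive and negative cells of the same plate, as the difference in mean log2(CPM+1), over plates with at least 5 cells on each side, and a difference of 1 or more was called. Of 25 differences 10 were called, against 0.904 to 6.51% of genes for the 5 markers.

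**Figure D4:**
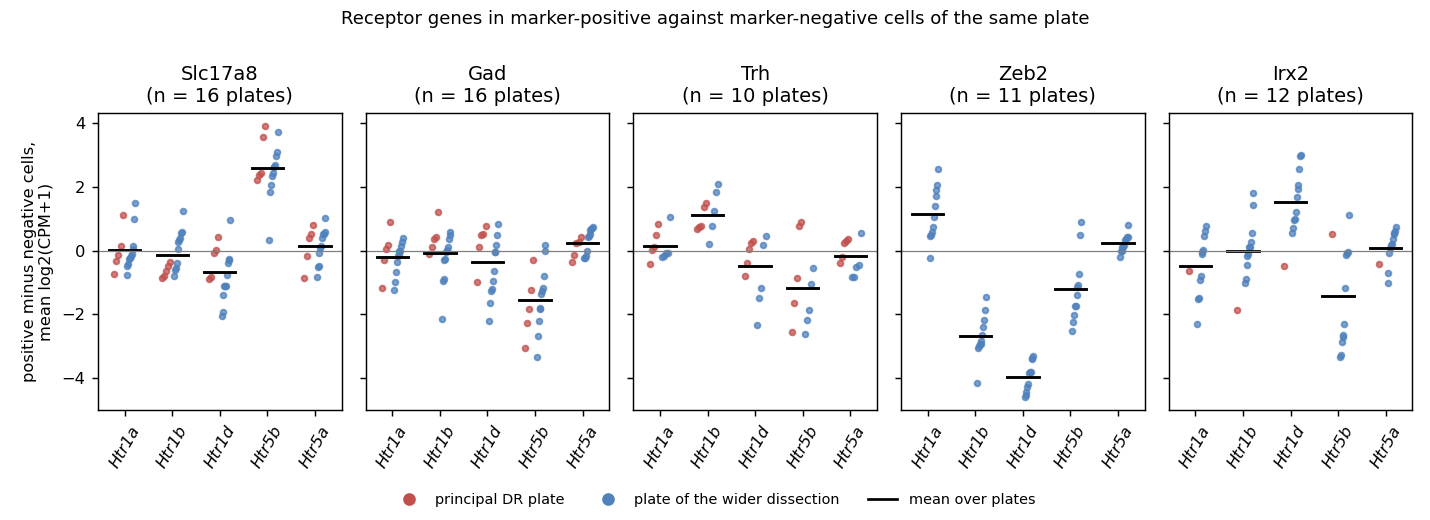
Difference in mean log2(CPM+1) of each member between marker-positive and marker-negative cells of the same plate, 1 point per plate and bars for the mean over plates. Htr5b rises with Slc17a8 (2.58) and Htr1b and Htr1d fall with Zeb2 (-2.67 and -3.95), whereas the means of Htr5a stay between -0.17 and 0.25.

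Zeb2-positive cells had the receptor profile furthest from the rest: more Htr1a, and little Htr1b or Htr1d. All 11 plates compared were of the wider dissection, since the pDR held 3 such cells. Of the 5 members 4 were called, against 6.51% of the 11389 genes read in at least 25% of the cells. The called members were Htr1a (1.16 ± 0.84, SD over 11 plates), Htr1b (-2.67 ± 0.71), Htr1d (-3.95 ± 0.48) and Htr5b (-1.20 ± 1.07).

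Htr1d was near the limit of detection there. It was read in 14 of 150 Zeb2-positive cells (9.33%, 5.20 to 15.2%) and in 83.5% of the others, and its plate means were 0 (lowest), 0.252 (median) and 9.30 CPM (highest) against 28.4, 51.2 and 58.6 CPM. The 2 sets of plate means did not overlap, and the difference was below 0 in 11 of 11 plates. Htr1b was read in 34.7% against 89.0% of cells, with plate means of 0, 5.01 and 18.9 CPM against 13.6, 25.7 and 34.4 CPM. These ranges overlap between plates, but in each of the 11 plates Htr1b was lower in the Zeb2-positive cells.

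Htr1a went up in the same cells. Its plate means were 111, 170 and 247 CPM in Zeb2-positive and 69.9, 102 and 119 CPM in Zeb2-negative cells. The difference in mean log2(CPM+1) was above 0 in 10 of 11 plates. On plate 52 it was -0.23, although mean CPM there was 111 in positive and 103 in negative cells. The 15.0% of cells that were Zeb2-positive held 24.8% of all Htr1a and 1.10% of all Htr1d, by summed CPM. Htr1a was the only member read in 36.0% of Zeb2-positive cells and in 0.942% of the others, and Htr1a, Htr1b and Htr1d were read together in 6.67% against 73.9%. Htr1a was the leading member per length in 81.3% of Zeb2-positive cells. They held 1.97 members on average (SD 0.95 over cells) and the others 3.37 (SD 0.98).

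The Zeb2 comparison was repeated in cells of like marker state, where enough cells were left on both sides. Among Slc17a8-positive cells alone, the differences were 1.07 for Htr1a, -2.88 for Htr1b, -3.79 for Htr1d and -1.86 for Htr5b over 11 plates. Among Gad-negative cells Htr1b differed by -2.93 and Htr1d by -4.34 over 10 plates, while Htr1a differed by 0.83 ± 0.89, under the threshold. Among Trh-negative cells Htr1a differed by 1.15 and Htr1d by -4.00, and among Irx2-negative cells by 1.09 and -3.91. Among Gad-positive cells, over 2 plates only, the differences were 1.97 for Htr1a, -2.64 for Htr1b, -3.43 for Htr1d and -1.37 for Htr5b. Slc17a8-negative, Trh-positive and Irx2-positive cells could not be compared. Median depth was 864648 reads in the positive and 820062 in the negative cells, and after thinning to equal depth the difference was -2.73 for Htr1b in Zeb2-positive cells and -4.01 for Htr1d in Zeb2-positive cells. Summed oligodendrocyte genes differed by 0.23 in log2(CPM+1), and with the 172 cells rich in them left out, again a choice made after seeing the data, Htr1a differed by 0.85 and Htr5b by -0.97, both under the threshold, and Htr1d by -3.92. Zeb2 shares exons with the antisense gene Zeb2os, which the counting cannot separate.

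Htr5b went with Slc17a8. Its plate means were 15.9, 44.6 and 69.0 CPM in Slc17a8-positive and 0, 4.89 and 20.1 CPM in negative cells. The difference was 2.58 ± 0.84 and above 0 in 16 of 16 plates, and Htr5b was the 1 member of 5 called, against 0.904% of genes. At least 1 read of Htr5b was found in 54.1% of positive and 12.0% of negative cells, and 351 of the 393 cells with Htr5b (89.3%) were Slc17a8-positive. Positive cells were deeper, with medians of 867515 and 768896 reads, and the difference after thinning was 2.58. On plate 56 mean CPM ran the other way, at 15.9 in positive and 20.1 in negative cells, although the log2 difference there was 0.33. Among Irx2-positive cells the difference was 0.58 ± 0.28 (6 of 6 plates above 0), under the threshold.

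Among Slc17a8-positive cells the level of Htr5b differed with the other markers. In Gad-negative cells Htr5b differed by 3.28 ± 0.95 between Slc17a8-positive and negative cells (11 of 11 plates), and in Gad-positive cells by 1.29 ± 1.09 (11 of 13 plates). The 335 cells with Slc17a8 and none of the other markers had the highest mean, 64.7 CPM, with a read in 75.2% of cells. The 83 cells with Slc17a8 and Zeb2 had 24.8 CPM and the 83 with Slc17a8 and Irx2 had 16.3 CPM. In the 75 cells with none of the 5 markers it was 3.21 CPM.

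Gad-positive cells had less Htr5b, and no other member was called between them and Gad-negative cells. Htr5b plate means were 1.64, 15.4 and 34.6 CPM against 13.6, 36.8 and 60.9 CPM, the difference was -1.56 ± 1.02 and it was below 0 in 15 of 16 plates. It was the 1 member called, against 0.931% of genes. Among Slc17a8-positive cells the difference was -1.78 (12 of 13 plates below 0), and among Slc17a8-negative cells 0.25 ± 0.90. Summed oligodendrocyte genes were lower in the Gad-positive cells by 0.53 ± 0.74 in log2(CPM+1), with a median of 20.9 against 26.6 CPM, and without cells rich in them the Htr5b difference was -1.56.

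Trh-positive cells, 91.3% of which were also Gad-positive, had the highest Htr1b. Plate means of Htr1b were 23.1, 51.2 and 62.6 CPM in Trh-positive and 13.3, 27.1 and 51.3 CPM in negative cells, a difference of 1.12 ± 0.58 and above 0 in 10 of 10 plates. Htr1b was read in 95.7% of Trh-positive and 78.5% of negative cells. Within Gad-positive cells the difference was 1.15 ± 0.37 (6 of 6 plates), and among Zeb2-negative cells 0.89 (9 of 9 plates), under the threshold. Htr5b was the other called member (-1.16 ± 1.26, 8 of 10 plates below 0), so 2 of 5 were called against 3.12% of genes. In the pDR, which held 98 of the 138 Trh-positive cells, the Htr5b mean was -0.68, under the threshold, with 2 of 5 plates above 0. In the wider dissection it was -1.64 with 0 of 5 plates above 0, on plates with 5 or 6 Trh-positive cells each. Leaving out plate 60 brought the Htr5b difference to -0.999, just under the threshold in size, and within Gad-positive cells it was 0.08 ± 1.56. Among Slc17a8-negative cells the direction was the opposite, with Htr5b higher in Trh-positive cells by 0.99 ± 0.88 (5 of 5 plates). Summed endothelial genes were higher in Trh-positive cells by 0.42 ± 0.61 in log2(CPM+1), with medians of 0 CPM on both sides, and their part was not tested. Without cells rich in oligodendrocyte genes, Htr1b differed by 0.99.

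Irx2-positive cells had more Htr1d and less Htr5b. Htr1d plate means were 37.8, 56.5 and 79.4 CPM against 12.5, 38.7 and 50.2 CPM, a difference of 1.52 ± 1.05 and above 0 in 11 of 12 plates. Htr5b plate means were 2.55, 7.47 and 69.4 CPM against 15.4, 37.9 and 54.5 CPM, a difference of -1.41 ± 1.62 and below 0 in 10 of 12. These 2 of 5 members were called, against 1.75% of genes. Just 1 of the 12 plates was of the pDR, and there both directions were opposite (-0.47 for Htr1d and 0.53 for Htr5b). Summed oligodendrocyte genes were higher by 0.44 ± 0.75, with medians of 33.2 and 22.7 CPM, and without cells rich in them Htr1d differed by 1.43 and Htr5b by -1.40.

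The Htr1d difference was smaller once Zeb2-positive cells were set aside. Irx2 and Zeb2 were read together in 5 cells, so nearly all Zeb2-positive cells, which were low in Htr1d, counted as Irx2-negative. Among Zeb2-negative cells Htr1d differed by 0.55 ± 0.60 with Irx2, above 0 in 10 of 12 plates, in place of 1.52. Htr5b differed by -2.11 ± 1.24 in those cells, below 0 in 11 of 12. Among Slc17a8-positive cells Htr1d differed by 2.05 ± 1.05 with Irx2, above 0 in 11 of 11 plates. Of the 150 Zeb2-positive cells 121 were Slc17a8-positive, so this comparison still held most of them. Cells with Slc17a8 and Irx2 but no other marker had 66.7 CPM of Htr1d, and cells with Slc17a8 alone 40.0 CPM. Their plate means of log2(CPM+1) were 5.09 ± 0.89 and 4.05 ± 0.62. Among Slc17a8-negative cells Htr1d differed by 0.04 ± 0.76 with Irx2, above 0 in 2 of 6 plates. Htr5b differed by -1.92 ± 1.83 in the Slc17a8-positive cells and by -0.67 ± 0.58 in the Slc17a8-negative cells, the latter under the threshold. Htr5a was not called for any of the 5 markers, with means from -0.17 to 0.25, at a level where 1 read weighs heavily.

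Taking the 5 markers jointly, 12 combinations held at least 20 cells and covered 958 cells. Htr1a ran from 231 CPM in the 20 cells with Zeb2 alone to 50.3 CPM in the 20 cells with Gad and Irx2, of which 65.0% had a read of it. In the 2 plates with at least 3 cells of that lowest group it lay below the next by more than 1 SD. Htr1a had means of 9.02 and 14.8 CPM in those 2 plates, well under the 50.3 CPM of all 20 cells. The other neighbours in the order of Htr1a did not differ beyond their spread. Htr1b was highest in cells with Gad and Trh (52.6 CPM). Its only step beyond 1 SD set the upper 8 combinations apart from the 3 with Zeb2 and the 20 cells with Gad and Irx2, which held 4.17 to 12.9 CPM. The order was taken from the mean over plates of log2(CPM+1).

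Htr1d was highest in the 75 cells with none of the 5 markers, at 86.3 CPM and in 96.0% of cells, ahead of Irx2 alone (68.3 CPM) and Slc17a8 with Irx2 (66.7 CPM). It was lowest in the 3 combinations with Zeb2, from 9.41 CPM with Slc17a8 and Gad to 0 reads in the 20 cells with Zeb2 alone, and the step to these was again the only one beyond 1 SD. For Htr5a and Htr5b 0 steps were beyond 1 SD. Htr5b had 0 reads in the 20 cells with Zeb2 alone and in the 20 with Gad and Irx2, where the exact interval reaches up to 16.8% of cells.

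**Figure D5:**
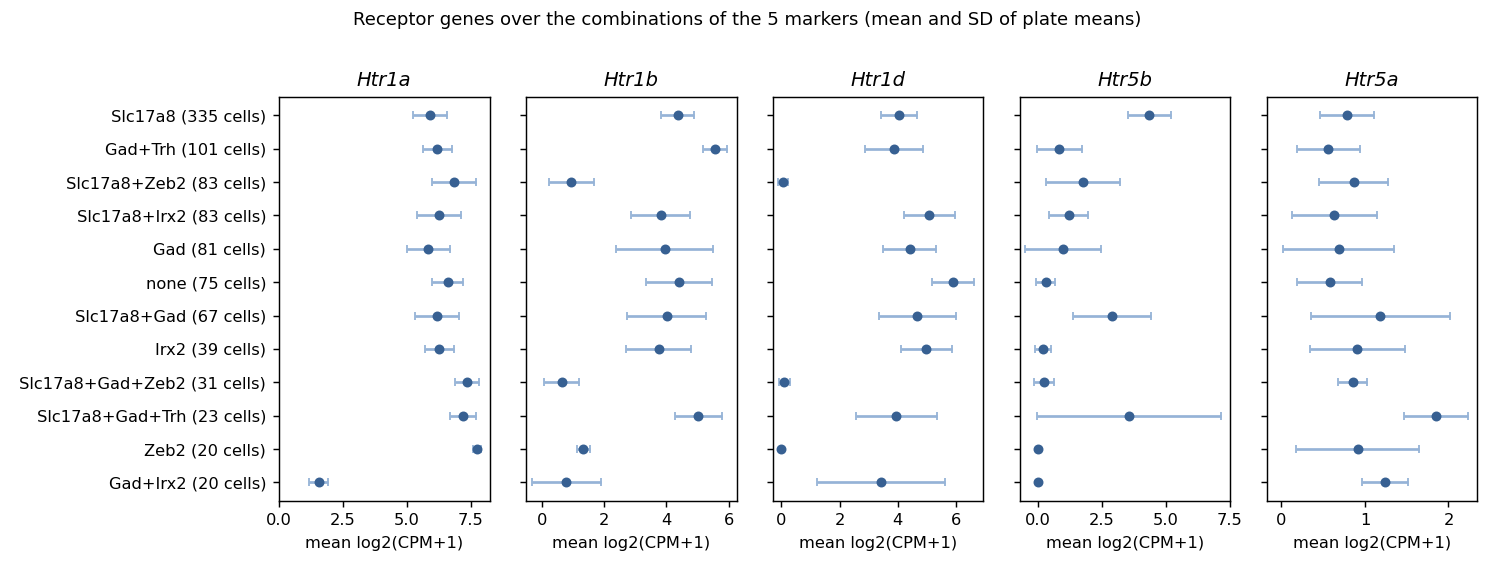
Mean over plates of mean log2(CPM+1) of each member, with SD over plates with at least 3 such cells, in the 12 combinations of the 5 markers that held at least 20 cells. Htr1d lies near 0 in the 3 combinations with Zeb2, and Htr5b is highest in cells with Slc17a8 alone (64.7 CPM).

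Between dissections, Htr1b and Htr1d were higher in the pDR and the other 3 members were not called. Htr1b plate means were 37.4, 45.4 and 54.9 CPM in the pDR and 11.7, 22.9 and 32.3 CPM in the wider dissection, and the 2 sets of plates did not overlap. In mean log2(CPM+1) the pDR was higher by 1.46 (4.80 ± 0.22 over 5 plates and 3.34 ± 0.53 over 11). Htr1d was higher by 1.18 (4.61 ± 0.40 and 3.43 ± 0.82), and its plates overlapped, at 45.4 to 55.5 CPM in the pDR and 17.3 to 51.4 CPM in the other. So 2 of 5 members passed a difference of 1, against 5.4% of genes, and the plates of 1 member did not overlap, against 8.22% of genes. Htr1a differed by 0.05, Htr5a by 0.13 and Htr5b by 0.08.

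These differences were smaller without Zeb2-positive cells. They were 3 of 290 pDR cells and 147 of 709 in the wider dissection, where their share ran from 10.0 to 57.9% of a plate. Plate 48 held the highest share of them, and it had the highest Htr1a (193 CPM) and the lowest Htr1d (17.3 CPM) of all plates. Without them, a setting chosen after seeing the data, Htr1d was higher in the pDR by 0.30 and Htr1b by 0.91, and the plates of Htr1b still did not overlap. Htr1a, Htr1b and Htr1d were read together in 81.4% of pDR cells (76.4 to 85.7%) and in 56.6% of the others (52.8 to 60.2%). These intervals count cells and leave out the spread between plates, so they do not test the dissections against each other. The pDR cells were the shallower, with medians of 755926 and 869546 reads. Dissection, animals and plates cannot be told apart.

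Genes most like each member were sought among the same 11389 genes by the mean within-plate correlation, and a size of 0.2 was called. For Htr1a, 2.1% of the other genes passed 0.2 in size, and of the other 4 members Htr1d did. Its highest were Gnas (0.48 ± 0.17, above 0 in 16 plates), which encodes the stimulatory G protein subunit, then Gm20721 (0.37), App (0.35), the amyloid precursor, Slc7a8 (0.32), an amino acid transporter, and Brox (0.31). Its lowest were the cadherin Cdh8 (-0.35), Tceal9 (-0.26) and 1190002N15Rik (-0.24). Ranking by Spearman correlation kept 2 of the 5 highest for Htr1a, for Htr1b and for Htr5a, 3 for Htr5b and 4 for Htr1d. Of the 3 lowest it kept 2 for Htr1a, for Htr1b and for Htr5b, and 1 for Htr1d and for Htr5a.

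Htr1b passed with 2.75% of genes, Htr1d among them. Its highest were Cdk14 (0.45), Pitpnc1 (0.45), the acid-sensing channel Asic2 (0.43), Chn2 (0.39) and Slco3a1 (0.39), and its lowest Calb2 (-0.34), which encodes calretinin, Pou3f1 (-0.31) and Rab3c (-0.28). Htr1d passed with 4.07% of genes, Htr1a and Htr1b among them. It went most with Syndig1l (0.55 ± 0.19), Nxph4 (0.53), Necab2 (0.48), Rasgrf1 (0.48) and the GABA-A receptor subunit Gabre (0.47), all above 0 in 16 of 16 plates. Its lowest were Galnt18 (-0.39), Stxbp6 (-0.36) and the phosphodiesterase Pde4b (-0.35), and its correlation with the transcription factor Npas3 was 0.40 ± 0.14, above 0 in 16 plates. Npas3 shares exons with 1700060O08Rik, from which reads cannot be told apart here.

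Htr5b had the closest partners of the 5. It went most with Crhr2, a receptor for urocortins (0.65 ± 0.16), then Slc17a8 (0.57), Mgll (0.54), which breaks down an endocannabinoid, the potassium channel subunit Kcnab1 (0.50) and Ghrh (0.48), and least with Ptchd1 (-0.51), Hs3st4 (-0.47) and Pdgfd (-0.43), and all 8 had the same sign in 16 of 16 plates. It passed with 3.67% of genes and with 0 of the other 4 members. Htr5a passed with 0% of genes and 0 members. Its highest were Eef1a2 (0.16), Clmp (0.15), Bcam (0.14), Alkbh3 (0.14) and Acot2 (0.14), and its lowest Dut (-0.15), Arhgap36 (-0.14) and Chgb (-0.13).

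Of 45 genes of the receptors' pathway, 29 were read in at least 25% of cells, and a few went with a member. With Htr1a 5 of 29 passed 0.2, with Htr1b 4, with Htr1d 3, with Htr5a 0 and with Htr5b 7, against 2.1%, 2.75%, 4.07%, 0% and 3.67% of all genes. All but 1 were above 0, and among all genes the median correlation was between 0.01 and 0.06 for the 5 members. The exception was Slc18a2, the vesicular monoamine transporter, whose exons overlap Gm29261, with Htr5b (-0.31 ± 0.14, below 0 in 16 of 16 plates). None of the 9 other receptor genes was read in enough cells to enter.

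Among signalling genes, Gnai2, an inhibitory G protein subunit, passed with Htr1a (0.22 ± 0.24) as the only 1 of 4 such subunits, whose median was 0.10, and by rank correlation it was 0.10. Rgs2 and Rgs7, which shorten G protein signals, passed with Htr5b (0.44 ± 0.15 and 0.29 ± 0.12, both above 0 in 16 plates), and Rgs2 also with Htr1b (0.23). The adenylyl cyclase Adcy2 passed with Htr5b (0.29). None of the 3 G protein-gated potassium channel genes or the 2 calcium channel genes passed, and their largest values were 0.16 for Kcnj6 with Htr1b and 0.14 for Cacna1b with Htr1a. S100a10, which encodes p11, a partner of the 1B receptor protein, passed with Htr1b (0.35 ± 0.20, above 0 in 15 plates) and Htr1d (0.21, or 0.16 by rank). S100a10 also fell with Zeb2, by 1.43 in log2(CPM+1), as did Rgs7, by 1.34, and Rgs2, by 1.20. In Slc17a8-positive cells, where Htr5b was higher, Rgs2 was higher by 0.98, Adcy2 by 0.78 and Rgs7 by 0.42. Whether these genes go with Htr5b among cells of like Slc17a8 state was not tested.

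All 6 genes of serotonin synthesis, transport and breakdown were tested. Their median correlation was 0.22 with Htr1a, 0.17 with Htr1b, 0.16 with Htr1d, -0.02 with Htr5a and 0.12 with Htr5b. Slc6a4, the serotonin transporter, passed with 4 members: Htr1b (0.39 ± 0.21, above 0 in 16 plates), Htr5b (0.27), Htr1a (0.26) and Htr1d (0.23). Ddc, which completes serotonin synthesis, passed with Htr1a, Htr1d and Htr1b (0.26, 0.26 and 0.25). Tph2, the rate-limiting enzyme, passed with Htr1a (0.21) and Htr5b (0.20), Slc18a2 with Htr1a (0.23), and the monoamine oxidase gene Maob with Htr5b (0.23). Maob was also higher in Slc17a8-positive cells, by 0.80 in log2(CPM+1). By rank correlation 3 of these fell under 0.2 for Htr1a, at 0.05 with Slc6a4, 0.08 with Ddc and 0.12 with Tph2, while Slc18a2 stayed at 0.23. Slc6a4 with Htr1d also fell under it, at 0.12.

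The signs of other cells moved little with the members. The mean within-plate correlation with summed oligodendrocyte genes was between -0.06 and 0.04 for the 5 members, and with immediate-early genes, which mark recent activity or the stress of dissociation, between -0.08 and 0.03. For the lists of astrocytes, microglia, endothelial cells and other neurons it was between -0.08 and 0.10. Depth went with Htr1b (0.20 ± 0.17 with the log of reads, above 0 in 13 of 16 plates) and Htr5b (0.15 ± 0.11, above 0 in 15). Given the log of reads, Htr1b and Htr1d had a partial correlation of 0.21 in place of 0.23.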

How the data were processed

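Single tdTomato-positive cells were sorted into plates, and polyadenylated RNA was made into Smart-seq2 libraries read as pairs of 75 bases. The authors aligned reads to mm10 and counted them per gene without strand (STAR 2.6.1a and HTSeq 0.11.2 in the submitters' processing notes), removed genes of the Y chromosome and kept cells with at least 300 genes and 50000 reads. The authors deposited the values as CPM, counts scaled to the same total of reads on genes in each cell. Dividing the values of each cell by what 1 read is worth there gave whole reads for 100% of values (within 0.001), which supplied depth per cell. No count test was run, because the labels name no animals and each dissection is then 1 sample. All 999 columns matched a labelled cell, and the other 537 labelled cells were not analysed here. No pair of cells held identical values, and no doublet caller was run on these singly sorted cells.

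A gene counted as read with at least 1 read. Levels were compared as mean log2(CPM+1) within plates with at least 5 cells on each side, and correlations used ln(CPM+1) within plates. Both understate changes of low genes. Differences of 1 and correlations of 0.2 in size were called, over genes read in at least 25% of cells. Named genes were the members, the 5 highest and 3 lowest correlated genes of each, the markers, listed pathway genes past 0.2 and Npas3. The members and all lists were chosen with earlier results of these data known. Alternatives were other detection limits, pseudocounts of 0.1 and 10 CPM, rank and partial correlations, thinning to 250000 reads, each dissection alone, leaving out each plate, and 3 settings chosen after seeing the data (without Zeb2-positive cells, without oligodendrocyte-rich cells, centring by marker combination). The scripts were tested on simulated data. Python 3.11.15, NumPy 2.4.6, SciPy 1.17.1, pandas 2.3.3 and matplotlib 3.10.9 were used. Gene positions came from GENCODE M21 and promoters from RefSeq, which matched 4 of the 5 members.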

Additional observations from a re-analysis of the deposited data

How the results depend on the processing

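Over 72 results there were 1366 alternative values. Of these, 1310 stayed within 1 SD over plates of the reported value, within its interval for shares or, for counts, close to it. Another 54 moved further and 2 called values reversed. Leaving out 1 plate gave 864 of the values, and all 864 stayed. A mean over plates can hardly move by 1 SD when 1 plate is left out, so these values say little. A value could also stay and yet lose its call. Some differences near 0 that were not called changed sign within that spread. The reversed values were Htr1d (-0.47) and Htr5b (0.53) in Irx2-positive cells in the principal DR alone, where 1 plate could be compared. The number of member pairs with a correlation of at least 0.2 was 1 in place of 2 after thinning to 250000 reads (990 cells), with Spearman correlations, with a pseudocount of 10 CPM, without Zeb2-positive cells and with centring by plate and marker combination, the last 2 settings chosen after seeing the data. Of the 25 marker differences 10 were called, and 3 with a pseudocount of 10 CPM. In the principal DR alone 4 were called, and Zeb2 could not be compared there with 3 cells. They were Htr5b with Slc17a8 (2.90) and Gad (-1.74), and Htr1b with Trh (1.01) and Irx2 (-1.85). The last was not called over all plates, and it rested on 1 plate with 6 Irx2-positive cells. For the principal DR alone and for the pseudocount of 10 CPM the share of all genes called was not computed. How unusual these counts of members are is therefore not known. Between dissections 2 members were called, 0 with a pseudocount of 10 CPM, 1 by the log2 ratio of mean CPM plus 1 and 0 without Zeb2-positive cells. Genes most like Htr1a numbered 239, and 124 by Spearman correlation. For Htr1b the numbers were 313 and 213, for Htr1d 463 and 421, and for Htr5b 418 and 443. Leaving out 1 plate changed 3 calls: without plate 39 the correlation of Htr1a with Htr1d was 0.19 and that of Htr1a with Htr5b -0.21, and without plate 60 Htr5b in Trh-positive cells was -0.999. The percent of cells with Htr5a was 29.2 as reported, 21.9 after thinning and 15.8 when 5 reads were required. Marker groups were compared within plates throughout, and no replicate block was fitted, since no test was run.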
